A study of Mus musculus with 84 samples.

Results

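The 36 genes described here write, erase and read acetyl groups on histones, or set and remove methyl groups on lysine 27 of histone H3 (H3K27). They were taken as a list of names: 9 acetyltransferases, 16 deacetylases, 6 bromodomain readers and 5 genes of H3K27 methylation. Each name matched 1 of the 55401 gene IDs of the count files, and all 36 were among the 17941 genes with enough counts to be tested. The RNA came from nuclei of the frontal lobe of the cortex of 129S6/SvEvTac mice aged 12 weeks, sorted for NeuN, a protein of neuronal nuclei. DOI (2,5-dimethoxy-4-iodoamphetamine), which the labels name as the injected agent, is a psychedelic that activates serotonin receptors. A vehicle group was injected with vehicle only, and 3 DOI groups were taken 24 h, 48 h and 7 days after injection. Each group had RNA from 4 mice. The 2 libraries made from a mouse were summed, so that the mouse was the replicate. The labels give no dose and do not say whether the vehicle mice were killed at a time matched to 1 of the DOI groups. The H3K27ac chromatin samples of the study were not analysed here.

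Acetyltransferases place acetyl groups on histone tails, deacetylases take them off, and proteins with a bromodomain bind the acetylated tail and recruit the transcription machinery. At H3K27 acetylation and methylation exclude each other on the same residue: CBP and p300 place the acetyl mark found at active enhancers and promoters, whereas the polycomb complex PRC2 places the methyl mark of silenced genes. In neurons several of these proteins respond to activity, and class IIa deacetylases are known to move between nucleus and cytoplasm.

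Vehicle mice had totals of 9151680 to 11517452 counts, the 24 h group 6441396 to 8090559, the 48 h group 5834248 to 7344355 and the 7 day group 6972577 to 12354785. A count of 3 corresponded to 0.243 to 0.514 CPM, the usual count relative to library size, here with TMM factors. Rbfox3, the gene of NeuN, was at 46.3 to 68.1 CPM in vehicle mice and at 88.4 to 115 CPM at 24 h. The 4 markers of all neurons, Rbfox3 among them, summed to 5181 to 5648 CPM in vehicle mice and to 3843 to 5542 at 24 h, where Rbfox3 rose and Snap25 fell. The 6 inhibitory neuron markers summed to 1371 to 2741 CPM in vehicle mice, 1706 to 2457 at 24 h and 1755 to 2697 at 48 h; 1 rose and 2 fell at 24 h (of Gad1, Gad2 and Slc32a1), and 1 rose and 1 fell at 48 h (of Gad1 and Slc32a1). Of 8 striatal neuron markers, summing to 244 to 416 CPM in vehicle mice, 169 to 287 at 24 h and 283 to 548 at 48 h, Drd1 and Ppp1r1b fell at 24 h and Rgs9 rose at 48 h. Summed over their lists, 5 of 5 excitatory neuron markers gave 439 to 499 CPM in vehicle mice. The early groups had 894 to 2356 (24 h) and 1401 to 2137 CPM (48 h), and the 7 day group 411 to 1349. The sums of the 5 astrocyte markers (119 to 157 CPM in vehicle, 81.7 to 189 at 24 h, 68.6 to 198 at 48 h) and of the 6 oligodendrocyte markers (153 to 339, 150.2 to 235 and 178 to 235 CPM) overlapped between those groups. Within the lists Camk2a and Tbr1 of the excitatory markers and Cspg4 of the oligodendrocyte precursor markers rose at both times, Mbp fell at 24 h and Olig1 fell at 48 h. The 5 microglia markers summed to 69.2 to 107 CPM in vehicle mice, 42.5 to 83.8 at 24 h and 46.0 to 73.9 at 48 h, and the 4 endothelial markers to at most 8.23 CPM in any mouse. An 18S ribosomal RNA pseudogene took 0.00694% to 0.0101% of counts in vehicle mice, 0.328% to 1.57% at 24 h and 0.523% to 1.66% at 48 h, with no overlap. The mitochondrial share was 0.0171% to 0.0701% in vehicle mice, 0.0621% to 0.101% at 24 h and 0.108% to 0.268% at 48 h. Except for a fit with the 18S share as a covariate, given below, their part in the differences below was not tested. In bulk RNA, fewer nuclei of a type and less RNA per nucleus cannot be told apart.

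A day after DOI, transcripts of one acetyltransferase, Kat6b, stood 6.53-fold higher, and most other members that moved rose by smaller factors: the class IIa deacetylases Hdac4, Hdac5 and Hdac7, Hdac11 of class IV, the BET readers Brd2 and Brd3, the acetyltransferases Ep300 and Kat6a, and the H3K27 genes Ezh2, Suz12 and Kdm6b. Hdac10, Kat7, Ezh1, Sirt2 and Sirt3 fell. Of the 36 members, 17 (47.2%) had an adjusted p below 0.05 at 24 h in the quasi-likelihood test of edgeR, adjusted by Benjamini and Hochberg over all 17941 genes, 12 higher and 5 lower. Over all genes tested 24.2% passed, 13.8% higher and 10.4% lower. All 4 treated mice lay beyond all 4 vehicle mice in 21 members (58.3%), 14 higher and 7 lower, against 35.7% of all genes. The median log2 fold change was 0.26 over the members and 0.03 over all genes. Regardless of direction, the median size of the log2 change was 0.63 over the members and 0.56 over all genes.

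At 48 h the picture was nearly the same, with CREB-binding protein (Crebbp) and Kat2b added to the risers, Sirt7 and Brd8 added to the fallers, and Suz12 no longer past the threshold. There 20 of 36 members (55.6%) passed, 13 higher and 7 lower, where 30.1% of all genes passed, 16.8% higher and 13.3% lower. The groups did not overlap in 22 members (61.1%), 15 higher and 7 lower, against 38.1% of all genes. The median log2 fold change was 0.27 over the members and 0.02 over all genes, and its median size regardless of direction 0.69 and 0.61. In all, 16 members passed at both times, 11 higher and 5 lower, always in the same direction. The 24 h and 48 h comparisons share the vehicle mice, so these are not independent findings. A further 15 members passed at neither time.

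Single mice decided part of these counts. At 24 h the count fell to 7 without vehicle mouse 1, to 8 without vehicle mouse 2, to 9 without 24 h mouse 4 and to 11 without 24 h mouse 1, and in each of these 4 fits no lower call was left. At 48 h it fell to 11 without vehicle mouse 1. Across all 8 fits per comparison that left out 1 mouse, 7 members kept their call at 24 h and 10 at 48 h. Brd3, Ep300, Hdac4, Hdac5, Hdac7, Kat6b and Kdm6b, all higher, kept it at both times, and Ezh1, Kat6a and Kat7 at 48 h only. With both 24 h mouse 1 and 48 h mouse 1, the mice with the fewest genes detected, left out, a choice made after seeing the data, 12 members passed at 24 h (11 higher and 1 lower) and 18 at 48 h (13 higher and 5 lower). That lost the 24 h calls of Ezh1, Ezh2, Hdac10, Hdac11, Kat7, Sirt2, Sirt3 and Suz12 and the 48 h calls of Brd8, Crebbp, Kat2b and Sirt3 (adjusted p = 0.0602 to 0.115), and added Sirt6, Brd8 and Kat5 at 24 h and Sirt6 and Suz12 at 48 h. With the log2 share of the 18S pseudogene as a covariate, 0 of 36 members passed at either time by edgeR, with 2 (Hdac7 and Kdm6b) at an unadjusted p below 0.05 at each time. With it the 24 h log2 fold change of Kat6b went from 2.71 to 0.20 (SE 0.46), that of Hdac7 from 1.47 to 1.17 (SE 0.47) and that of Kdm6b from 1.44 to 1.68 (SE 0.56). It reversed the sign of 6 of the 17 calls at 24 h (Brd2, Ep300, Ezh1, Hdac10, Kat6a and Kat7) and of 10 of the 20 at 48 h (these 6 with Brd8, Crebbp, Sirt3 and Sirt7), as with Kat6a at 24 h from 1.06 to -0.65 (SE 0.39) and Hdac10 from -1.16 to 0.72 (SE 0.46). Because that share did not overlap between vehicle and the 2 early groups, it and the treatment cannot be told apart.

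**Figure D1:**
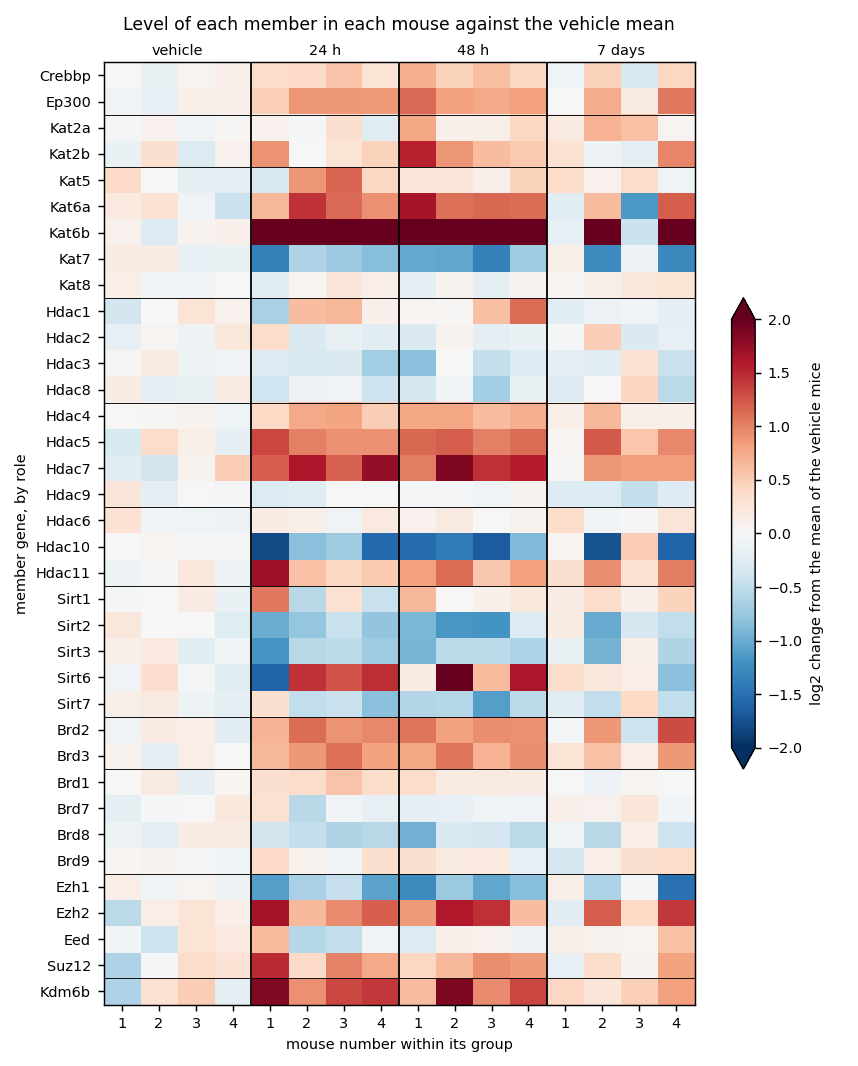
Log2 change of each of the 36 members (rows, grouped by role) from the mean of the vehicle mice, in each of the 16 mice (columns, 4 per group); the colours saturate at a change of 2 in either direction. The 24 h and 48 h columns share most of their reds and blues. At 7 days mice 1 and 3 are mostly pale like vehicle and mice 2 and 4 mostly coloured like the early groups. Exceptions include Kat6a and Hdac7 in mouse 3 and Hdac4 in mouse 4.

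To set members that rose beside members that fell, the promoters of 6 are shown: the 3 risers and the 3 fallers with the smallest p at 24 h among members called at both times whose RefSeq starts lie within 50 bases of each other. The RefSeq table (build GRCm38.p6, the build of the count files being GRCm38) held 43 promoters for 30 of the 36 members; Kat6a, Hdac1, Hdac3, Hdac10, Brd8 and Kdm6b had none in it. Each sequence runs 5′ to 3′ on the gene's strand over 300 bases, from 250 before to 50 after the start. Kat6b lies at chr14:21499520-21499819 (plus strand), Brd3 at chr2:27475349-27475648 (minus), Hdac5 at chr11:102230123-102230422 (minus), Kat7 at chr11:95310197-95310496 (minus), Ezh1 at chr11:101226414-101226713 (minus) and Sirt2 at chr7:28766502-28766801 (plus). The starts of the other 4 lie within 17 bases of the start of the counted gene, but that of Kat6b lies 18.3 kb and that of Brd3 32.3 kb inside it, so that other starts of these 2 genes are not shown. Capitals mark, on either strand, the GC box GGGCGG, the E-box CACGTG, the cAMP response element by its core TGACG and its full palindrome TGACGTCA and the NRF1 core CGCATGCG.
Kat6b: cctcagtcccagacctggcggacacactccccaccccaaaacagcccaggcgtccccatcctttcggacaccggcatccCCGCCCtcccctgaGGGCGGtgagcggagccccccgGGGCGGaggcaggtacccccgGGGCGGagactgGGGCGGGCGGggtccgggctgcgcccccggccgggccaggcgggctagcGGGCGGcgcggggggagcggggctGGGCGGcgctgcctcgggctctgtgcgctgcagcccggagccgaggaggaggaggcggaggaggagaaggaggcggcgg
Brd3: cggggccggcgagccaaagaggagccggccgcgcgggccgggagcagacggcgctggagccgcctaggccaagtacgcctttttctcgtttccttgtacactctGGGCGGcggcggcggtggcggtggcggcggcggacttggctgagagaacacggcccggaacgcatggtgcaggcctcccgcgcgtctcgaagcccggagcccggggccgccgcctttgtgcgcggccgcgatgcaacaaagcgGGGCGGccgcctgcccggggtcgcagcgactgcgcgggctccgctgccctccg
Hdac5: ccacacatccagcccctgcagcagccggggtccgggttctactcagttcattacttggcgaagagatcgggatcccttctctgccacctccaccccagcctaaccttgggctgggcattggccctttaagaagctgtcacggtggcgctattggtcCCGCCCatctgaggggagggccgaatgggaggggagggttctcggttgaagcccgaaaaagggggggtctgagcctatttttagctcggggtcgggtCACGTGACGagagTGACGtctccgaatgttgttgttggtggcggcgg
Kat7: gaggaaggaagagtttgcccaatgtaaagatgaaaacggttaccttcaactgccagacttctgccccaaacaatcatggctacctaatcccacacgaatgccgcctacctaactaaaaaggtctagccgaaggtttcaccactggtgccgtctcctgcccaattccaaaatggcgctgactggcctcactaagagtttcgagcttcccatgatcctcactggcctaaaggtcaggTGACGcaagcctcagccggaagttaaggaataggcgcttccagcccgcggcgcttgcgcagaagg
Ezh1: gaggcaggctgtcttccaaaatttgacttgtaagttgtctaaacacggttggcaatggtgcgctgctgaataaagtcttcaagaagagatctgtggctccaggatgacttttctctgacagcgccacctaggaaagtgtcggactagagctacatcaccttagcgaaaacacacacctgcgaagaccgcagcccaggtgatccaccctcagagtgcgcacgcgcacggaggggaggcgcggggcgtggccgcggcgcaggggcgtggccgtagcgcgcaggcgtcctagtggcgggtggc
Sirt2: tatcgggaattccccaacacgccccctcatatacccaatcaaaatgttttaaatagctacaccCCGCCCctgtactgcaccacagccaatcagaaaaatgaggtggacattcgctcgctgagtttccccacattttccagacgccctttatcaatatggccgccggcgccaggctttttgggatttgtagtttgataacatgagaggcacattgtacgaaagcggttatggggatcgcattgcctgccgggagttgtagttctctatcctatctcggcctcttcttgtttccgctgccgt

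The 3 risers all hold GC boxes, 8 matches in Kat6b (some overlapping), 2 in Brd3 and 1 in Hdac5, while Sirt2 holds 1 and Kat7 and Ezh1 hold 0. Hdac5 also has an E-box that overlaps the first of its 2 TGACG cores by 2 bases, and Kat7 has 1 such core. GC content was 78.3% in Kat6b, 75.0% in Brd3, 60.7% in Hdac5, 53.0% in Kat7, 59.3% in Ezh1 and 50.0% in Sirt2. Over all promoters of the table (32851) the GC box was found in 35.7% and over those of the members in 60.5%, alongside a difference in base composition. Of the 30 members with a promoter 22 held it, so it was not confined to risers. Among them were Sirt3 and Sirt7, which fell at 24 h or 48 h, and Hdac2 and Brd7, which passed at neither time. Ezh2 and Kat2b, which rose at 24 h or 48 h, held none. The median promoter had 52.7% GC and 7 CpG pairs over the table, and 62.0% GC and 23 CpG pairs over the members. TGACG was in 20.8% of all promoters and 30.2% of member promoters, the E-box in 7.15% and 6.98%, and the NRF1 core in 1.87% and 6.98%. The full palindrome, present in 1.79% of all promoters, was in 0 of the 43. These shares are descriptions and were not tested.

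Among the 9 acetyltransferases, 3 rose, 1 fell and 5 did not pass at 24 h, where 24.2% of all genes passed. At 48 h 5 rose, 1 fell and 3 did not pass, where 30.1% of all genes passed. The summed level of the 9 genes was 528 to 562 CPM in vehicle mice, 755 to 853 at 24 h and 808 to 949 at 48 h, without overlap. Much of that rise came from Kat6b, with means of 30.0 CPM in vehicle mice, 196 at 24 h and 212 at 48 h. Crebbp added to it, with means of 220, 290 and 321 CPM. Crebbp and Ep300 encode CBP and p300, the paired enzymes that acetylate H3K27. Crebbp (ENSMUSG00000022521, chr16:4081328-4213997, minus strand) was counted at 220.2, 197, 227 and 234 CPM in vehicle mice 1 to 4, at 284, 286, 325 and 266 CPM at 24 h and at 359.7, 301, 331 and 291 CPM at 48 h. Both treated groups lay wholly above vehicle, yet its log2 fold change missed the threshold at 24 h, with 0.40 (SE 0.17, adjusted p = 0.0964), but was past it in the 48 h mice, with 0.55 (SE 0.17, adjusted p = 0.0259). At 24 h limma voom (adjusted p = 0.0115) and the fit with only the groups compared (0.0279) called it. At 48 h Crebbp lost its call without vehicle mice 1, 2 and 3 or 48 h mice 1 and 3 (adjusted p = 0.0508 to 0.0812) and with no filter (0.137). Ep300 (ENSMUSG00000055024, chr15:81585351-81652077, plus strand) was at 51.1, 48.0, 58.4 and 57.4 CPM in vehicle mice, 74.9, 99.6, 98.2 and 97.4 CPM at 24 h and 117, 94.1, 91.0 and 94.8 CPM at 48 h. Every treated mouse exceeded every vehicle mouse, and its log2 fold changes were 0.78 (SE 0.21, adjusted p = 0.0128) and 0.89 (SE 0.21, adjusted p = 0.00561).

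Kat6b and Kat6a are the paired MYST enzymes MORF and MOZ, which acetylate histone H3. Kat6b (ENSMUSG00000021767, chr14:21481434-21672478, plus strand) was at 31.7, 24.8, 31.2 and 32.2 CPM in vehicle mice, at 205, 184, 173 and 221 CPM at 24 h and at 190.5, 285, 197 and 174 CPM at 48 h. The lowest early DOI mouse thus stood far above the highest vehicle mouse, and at each time Kat6b had the smallest p of the 36 members. Its log2 fold changes were 2.71 (SE 0.50, adjusted p = 0.00305) and 2.82 (SE 0.51, adjusted p = 0.00188). Its paralogue Kat6a (ENSMUSG00000031540, chr8:22859535-22943259, plus strand) was at 25.8, 27.9, 21.5 and 16.6 CPM in vehicle mice, 36.1, 62.4, 50.0 and 43.0 CPM at 24 h and 72.0, 48.9, 50.7 and 49.3 CPM at 48 h. These groups did not overlap, with log2 fold changes of 1.06 (SE 0.35, adjusted p = 0.0366) and 1.27 (SE 0.35, adjusted p = 0.0139). The 24 h call of Kat6a was lost without vehicle mice 1, 2, 3 and 4 or 24 h mice 2, 3 and 4 (adjusted p = 0.0576 to 0.102) and with library 2 alone (0.0534).

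Kat7 (HBO1), a MYST enzyme which acetylates histones H3 and H4, went the other way. Its levels (ENSMUSG00000038909, chr11:95274259-95310246, minus strand) were 118, 117, 94.3 and 97.0 CPM in vehicle mice, 41.4, 69.0, 64.2 and 58.9 CPM at 24 h and 51.9, 51.6, 41.5 and 64.3 CPM at 48 h. Every early DOI mouse was below every vehicle mouse, with log2 fold changes of -0.87 (SE 0.28, adjusted p = 0.0308) and -1.03 (SE 0.28, adjusted p = 0.0121). At 24 h the call of Kat7 was lost without vehicle mice 1 and 2 or 24 h mice 1 and 4 (adjusted p = 0.0691 to 0.0877). Kat2b (PCAF), a subunit of the SAGA-type coactivator complexes (ENSMUSG00000000708, chr17:53566861-53672720, plus strand), was at 10.2, 14.2, 9.23 and 12.1 CPM in vehicle mice, 21.5, 11.2, 13.7 and 15.7 CPM at 24 h and 34.0, 21.3, 17.5 and 16.5 CPM at 48 h. Only its 48 h mice were clear of vehicle, and the log2 fold changes were 0.44 (SE 0.31, adjusted p = 0.307) and 0.97 (SE 0.31, adjusted p = 0.0269). The 48 h call of Kat2b was lost without vehicle mice 1 and 3 or 48 h mouse 1 (adjusted p = 0.0708 to 0.112). Kat2a (GCN5), Kat5 (TIP60) and Kat8 (MOF) passed at neither time by edgeR. Kat2a was at 39.2 to 43.3 CPM in vehicle mice, 34.6 to 51.2 at 24 h and 44.0 to 70.3 at 48 h, and Kat8 at 46.6 to 53.2, 41.7 to 57.8 and 42.9 to 50.9. Kat5 was at 7.40 to 11.2, 6.70 to 19.8 and 9.19 to 11.8 CPM, and limma voom (adjusted p = 0.00239) and thinned counts (0.0489) called it higher at 24 h.

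**Figure D2:**
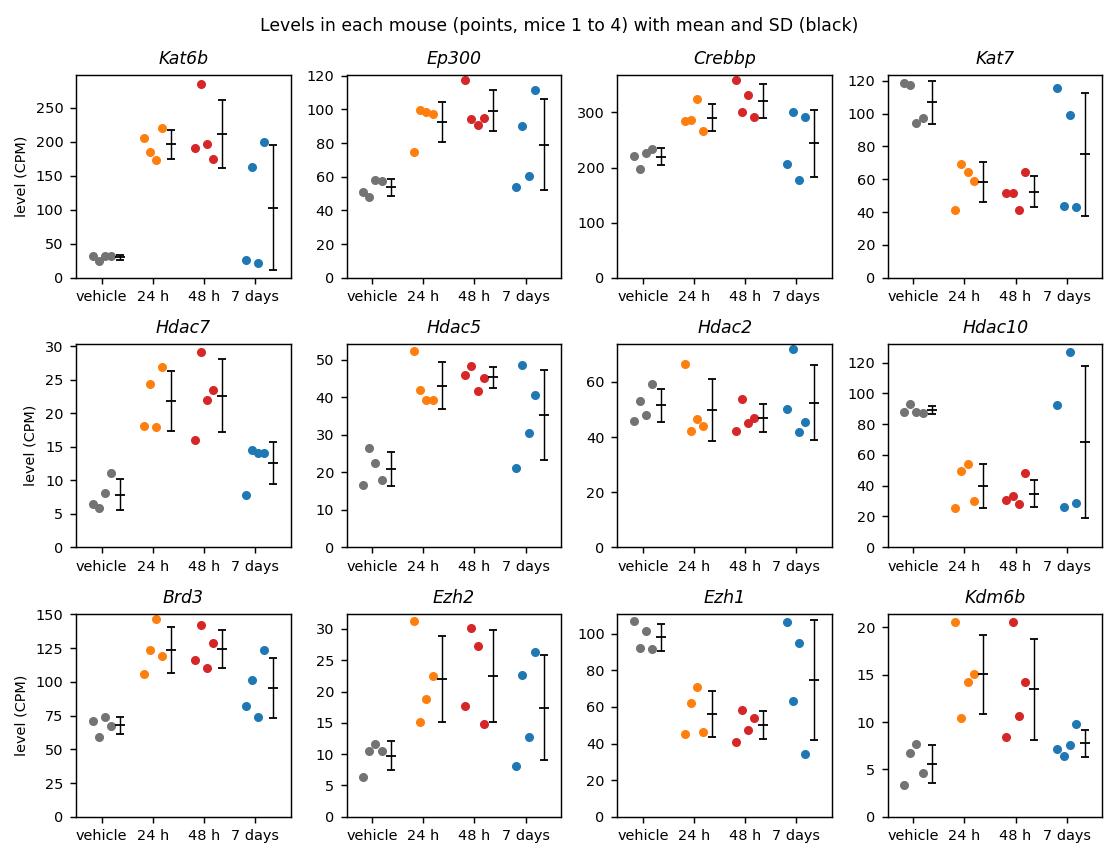
Levels in CPM (linear axes from 0) of 12 members in each mouse, with points for mice 1 to 4 and black bars for the mean and SD of the 4. Kat6b, Ep300, Crebbp, Hdac7, Hdac5, Brd3, Ezh2 and Kdm6b lie above vehicle at 24 h and 48 h, Kat7, Hdac10 and Ezh1 lie below it, and Hdac2 overlaps it.

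Of the 16 deacetylases 4 rose and 3 fell at 24 h, and 4 rose and 4 fell at 48 h, by edgeR, where 24.2% and 30.1% of all genes passed. Of the 4 class I enzymes, which act in nuclear corepressor complexes, edgeR and DESeq2 called 0 at either time, and limma voom called Hdac3 at 24 h (adjusted p = 0.0488). Of the 4 class IIa enzymes 3 rose at both times. Differences between the classes were not tested. The summed level of the 16 deacetylases was 1495 to 1770 CPM in vehicle mice, 1175 to 1748 at 24 h and 1147 to 1452 at 48 h. Sirt7 alone was 585 to 766 CPM of that sum in vehicle mice. The 11 deacetylases other than sirtuins summed to 693 to 744 CPM in vehicle mice, 647 to 755 at 24 h and 663 to 830 at 48 h, with overlap. Hdac2, the class I enzyme most studied in neurons (ENSMUSG00000019777, chr10:36974544-37001889, plus strand), was at 45.9, 53.1, 47.9 and 59.4 CPM in vehicle mice, 66.4, 42.1, 46.4 and 44.0 CPM at 24 h and 42.0, 53.9, 45.2 and 46.8 CPM at 48 h. The groups overlapped, and the log2 fold changes were -0.05 (SE 0.20, adjusted p = 0.866) and -0.13 (SE 0.20, adjusted p = 0.634). Hdac1 was at 3.97 to 6.48 CPM in vehicle mice and 3.20 to 8.62 at 24 h, and Hdac8 at 10.6 to 13.5 and 8.88 to 11.4. Hdac3, a catalytic subunit of corepressor complexes, was at 245 to 297 CPM in vehicle mice and 163 to 220.1 at 24 h, without overlap, but its log2 fold change of -0.38 (SE 0.20, adjusted p = 0.156) did not pass. At 48 h Hdac3 ranged from 148 to 267 CPM and overlapped vehicle.

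Class IIa enzymes carry little catalytic activity of their own and bind MEF2 transcription factors. Hdac7 (ENSMUSG00000022475, chr15:97792664-97844502, minus strand) was at 6.51, 5.80, 8.06 and 11.0 CPM in vehicle mice, 18.1, 24.4, 17.9 and 26.9 CPM at 24 h and 15.9, 29.1, 21.9 and 23.5 CPM at 48 h. It had no overlap with vehicle and log2 fold changes of 1.47 (SE 0.28, adjusted p = 0.0032) and 1.52 (SE 0.28, adjusted p = 0.00201). Hdac5 (ENSMUSG00000008855, chr11:102194432-102230166, minus strand) was at 16.5, 26.5, 22.4 and 18.01 CPM in vehicle mice, 52.4, 41.8, 39.2 and 39.2 CPM at 24 h and 45.9, 48.4, 41.8 and 45.2 CPM at 48 h. The groups did not overlap, with log2 fold changes of 1.05 (SE 0.23, adjusted p = 0.00563) and 1.12 (SE 0.23, adjusted p = 0.00323). Hdac4 (ENSMUSG00000026313, chr1:91928779-92195699, minus strand) was at 109, 111, 115 and 103 CPM in vehicle mice, 144, 186, 189.5 and 153 CPM at 24 h and 187, 187, 168 and 181 CPM at 48 h. Hdac4 rose less, again without overlap, with log2 fold changes of 0.62 (SE 0.16, adjusted p = 0.0124) and 0.72 (SE 0.16, adjusted p = 0.00478). Its 24 h call was lost with no filter on low counts (adjusted p = 0.0678). Hdac9, the remaining class IIa gene, was at 54.8 to 74.7 CPM in vehicle mice, 51.9 to 63.3 at 24 h and 59.1 to 65.9 at 48 h, and its log2 fold changes were -0.13 (SE 0.15) and -0.03 (SE 0.15).

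Of the 3 class IIb and IV enzymes 1 rose, 1 fell and 1 did not pass at each time by edgeR, where 24.2% and 30.1% of all genes passed. Hdac10, a class IIb enzyme known as a polyamine deacetylase (ENSMUSG00000062906, chr15:89123307-89128700, minus strand), was at 88.1, 92.8, 87.7 and 87.2 CPM in vehicle mice, 25.3, 49.4, 54.1 and 30.1 CPM at 24 h and 30.4, 33.1, 27.9 and 48.0 CPM at 48 h. All early DOI mice were below vehicle, with log2 fold changes of -1.16 (SE 0.39, adjusted p = 0.0385) and -1.35 (SE 0.39, adjusted p = 0.0171). Its call was lost at 24 h without vehicle mice 1, 2, 3 and 4 or 24 h mice 1 and 4 (adjusted p = 0.0654 to 0.108) and with library 2 alone (0.0507), and at 48 h without 48 h mouse 3 (adjusted p = 0.0512). Hdac11, the only class IV enzyme (ENSMUSG00000034245, chr6:91156665-91174692, plus strand), was at 27.2, 28.9, 34.5 and 27.4 CPM in vehicle mice, 96.7, 44.5, 39.0 and 42.6 CPM at 24 h and 52.3, 64.3, 42.7 and 52.1 CPM at 48 h. Mouse 1 of the 24 h group was the highest, the groups did not overlap, and the log2 fold changes were 0.92 (SE 0.27, adjusted p = 0.021) and 0.84 (SE 0.27, adjusted p = 0.0257). Without 24 h mouse 1 the 24 h log2 fold change of Hdac11 was 0.51. The call of Hdac11 was lost at 24 h without vehicle mice 1, 2 and 4 or 24 h mouse 1 (adjusted p = 0.0554 to 0.104) and at 48 h without vehicle mice 1, 2 and 4 or 48 h mouse 2 (adjusted p = 0.0609 to 0.0772). Genes on the other strand share 17.9% of its exon bases, and the counting used no strand. Hdac6, the tubulin deacetylase, was at 56.5 to 75.1 CPM in vehicle mice, 58.3 to 70.8 at 24 h and 60.9 to 70.0 at 48 h and passed at neither time.

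Sirtuins are NAD-dependent deacetylases, and of the 5 members 2 fell at 24 h and 3 at 48 h by edgeR, beside 24.2% and 30.1% of all genes called. Sirt2, a mainly cytoplasmic enzyme (ENSMUSG00000015149, chr7:28766735-28788661, plus strand), was at 66.2, 56.7, 56.2 and 47.5 CPM in vehicle mice, 28.2, 32.7, 41.1 and 32.4 CPM at 24 h and 29.7, 24.9, 24.3 and 46.7 CPM at 48 h. In every early DOI mouse it was below vehicle, at log2 fold changes of -0.75 (SE 0.25, adjusted p = 0.0347) and -0.85 (SE 0.25, adjusted p = 0.0172). Its call was lost at 24 h without vehicle mice 1, 2 and 3 or 24 h mice 1, 2 and 4 (adjusted p = 0.0627 to 0.0962) and at 48 h without vehicle mouse 1 or 48 h mice 2 and 3 (adjusted p = 0.0539 to 0.0566). Sirt2 also lost it with library 2 alone at 24 h (0.122) and 48 h (0.0527), and at 24 h with total counts only (0.0566) and thinned counts (0.0646). Sirt3, the main mitochondrial sirtuin (ENSMUSG00000025486, chr7:140863666-140882309, minus strand), was at 163, 175, 131 and 144 CPM in vehicle mice, 66.9, 104, 105 and 92.2 CPM at 24 h and 79.2, 106, 106 and 98.0 CPM at 48 h. The groups did not overlap, and the log2 fold changes were -0.73 (SE 0.22, adjusted p = 0.021) and -0.65 (SE 0.21, adjusted p = 0.029). The call of Sirt3 was lost at 24 h without vehicle mice 1 and 2 or 24 h mice 1 and 4 (adjusted p = 0.0514 to 0.0621) and at 48 h without vehicle mice 1 and 2 or 48 h mouse 1 (adjusted p = 0.07 to 0.08), and 12.7% of its exon bases are shared with genes of the other strand.

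Sirt7, a nucleolar sirtuin that removes acetyl groups from histone H3 (ENSMUSG00000025138, chr11:120618372-120625240, minus strand), was at 730.0, 766, 628 and 585 CPM in vehicle mice, 843, 479.6, 493 and 376 CPM at 24 h and 448, 454, 313 and 461 CPM at 48 h. At 24 h mouse 1 was above all vehicle mice and the other 3 below them, so that only the 48 h group was clear of vehicle. The log2 fold changes were -0.30 (SE 0.25, adjusted p = 0.374) and -0.69 (SE 0.25, adjusted p = 0.0408), and the 48 h call was lost without vehicle mice 1, 2 and 3 or 48 h mice 1, 2, 3 and 4 (adjusted p = 0.0521 to 0.119), and with total counts only (0.0650) and library 1 alone (0.0526). At 24 h limma voom called Sirt7 lower (adjusted p = 0.0332). Sirt1, a nuclear sirtuin with many protein targets, was at 23.6 to 29.0 CPM in vehicle mice, 17.6 to 54.5 at 24 h and 26.1 to 41.3 at 48 h. Sirt6, which acts at telomeres and on glycolytic genes, had few counts: 1.95 to 3.18 CPM in vehicle mice, 0.457 to 7.58 at 24 h and 2.75 to 11.7 at 48 h. Neither passed by edgeR, where Sirt6 had log2 fold changes of 1.17 (SE 0.60, adjusted p = 0.157) and 1.46 (SE 0.60, adjusted p = 0.0729). Other settings called Sirt6 higher, at 48 h DESeq2 (adjusted p = 0.0391), limma voom (0.0160), only the groups compared (0.0193), library 1 alone (0.0470) and the genes detected covariate (0.0461), and at 24 h limma voom (0.0207). Mouse 1 set the low end of Sirt6 at 24 h, where the other 3 mice were above vehicle. Without 24 h mouse 1 Sirt6 and Kat5 passed at 24 h, with log2 fold changes of 1.55 (adjusted p = 0.0318) and 0.87 (adjusted p = 0.0329), and without 48 h mouse 1 Sirt6 passed at 48 h, with 1.70 (adjusted p = 0.0483).

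**Figure D3:**
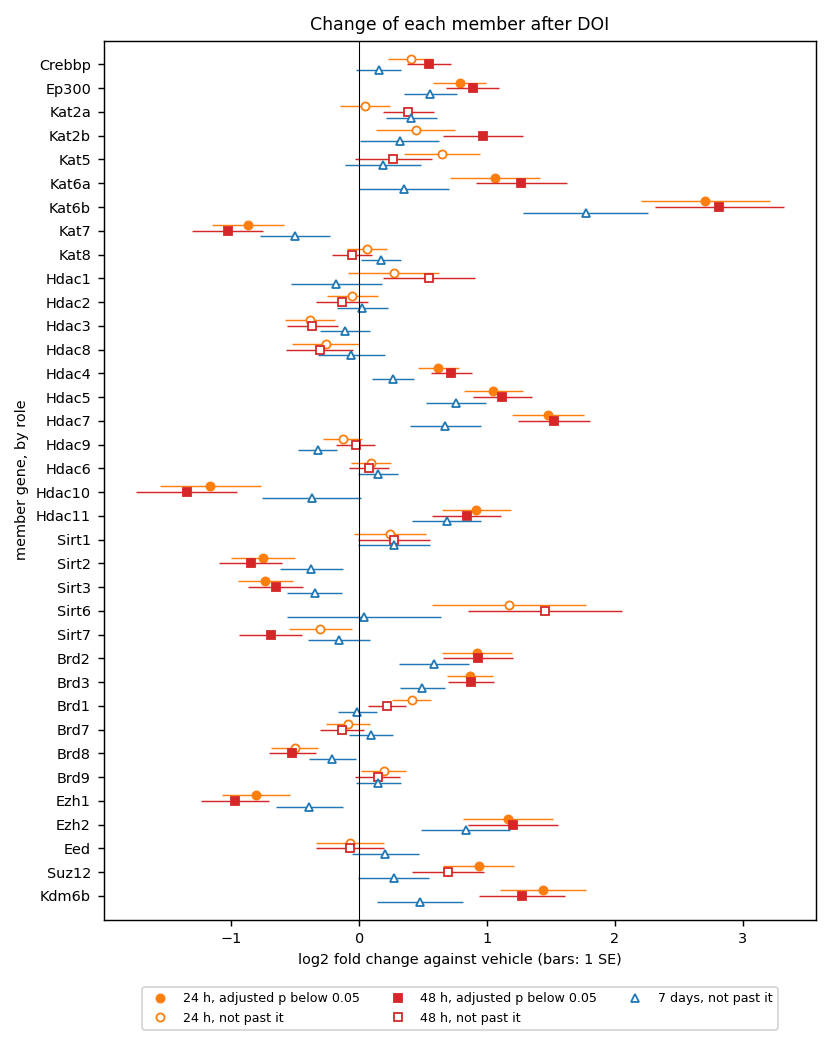
Log2 fold change against vehicle of each member at 24 h (circles), 48 h (squares) and 7 days (triangles), with bars of 1 SE; filled symbols passed an adjusted p of 0.05. The largest change is that of Kat6b, the filled symbols of 24 h and 48 h lie on the same side of 0 for every gene, and no 7 day symbol is filled.

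Among the readers, both BET members rose at both times by edgeR. Of the 4 other bromodomain members edgeR called 0 at 24 h and 1, lower, at 48 h, where 24.2% and 30.1% of all genes passed, while DESeq2 called Brd1 (adjusted p = 0.0109) and Brd8 (0.0357) at 24 h. BET proteins bind acetylated histones H3 and H4 and recruit elongation factors. Brd3 (ENSMUSG00000026918, chr2:27445579-27507662, minus strand) was at 71.0, 59.5, 73.8 and 67.1 CPM in vehicle mice, 106, 123, 146 and 119 CPM at 24 h and 116, 142, 110.0 and 129 CPM at 48 h. No early DOI mouse overlapped vehicle, and the log2 fold changes were 0.87 (SE 0.18, adjusted p = 0.00387) and 0.87 (SE 0.18, adjusted p = 0.00284). Brd2 (ENSMUSG00000024335, chr17:34112023-34122634, minus strand) was at 32.3, 38.0, 37.3 and 29.1 CPM in vehicle mice, 54.7, 74.1, 63.5 and 66.8 CPM at 24 h and 71.7, 59.4, 64.9 and 64.2 CPM at 48 h. Again without overlap, its log2 fold changes were 0.92 (SE 0.27, adjusted p = 0.0224) and 0.93 (SE 0.27, adjusted p = 0.0181). Its call was lost at 24 h without vehicle mice 1 and 4 or 24 h mice 2 and 4 (adjusted p = 0.0534 to 0.0651) and at 48 h without vehicle mice 1 and 4 (adjusted p = 0.0505 to 0.0523); 9.78% of its exon bases are shared with genes of the other strand. Brd8, a subunit of the TIP60 complex (ENSMUSG00000003778, chr18:34598615-34624601, minus strand), was at 246, 234, 293 and 294 CPM in vehicle mice, 206, 191, 176 and 180.3 CPM at 24 h and 136, 214, 209 and 183 CPM at 48 h. It was below vehicle in all 8 early DOI mice, with log2 fold changes of -0.50 (SE 0.18, adjusted p = 0.0523) and -0.52 (SE 0.18, adjusted p = 0.0389). At 48 h the call of Brd8 was lost without vehicle mice 1, 3 and 4 or 48 h mice 1 and 4 (adjusted p = 0.058 to 0.109), and with total counts only (0.0727), no filter (0.0596), library 1 alone (0.0818) and thinned counts (0.0548). Brd1, a scaffold of MYST enzymes, was at 34.6 to 44.8 CPM in vehicle mice and 49.8 to 58.8 at 24 h without overlap, but its log2 fold change of 0.41 (SE 0.15, adjusted p = 0.0562) did not pass by edgeR; Brd1 passed in 6 other settings, DESeq2 and limma voom among them (adjusted p = 0.00437 to 0.0483). Brd7 and Brd9, subunits of SWI/SNF remodellers, passed at neither time, with 66.5 to 88.0 and 303 to 337 CPM in vehicle mice and 51.8 to 93.4 and 306 to 419 at 24 h.

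By edgeR 3 of the 5 H3K27 methylation genes rose and 1 fell at 24 h, and 2 rose and 1 fell at 48 h. Of all genes 24.2% and 30.1% passed. Ezh2 and Ezh1 are the alternative catalytic subunits of PRC2, with Ezh1 the form usual in mature neurons. Ezh2 (ENSMUSG00000029687, chr6:47530139-47595341, minus strand) was at 6.42, 10.5, 11.7 and 10.5 CPM in vehicle mice, 31.2, 15.2, 18.9 and 22.5 CPM at 24 h and 17.7, 30.1, 27.3 and 14.9 CPM at 48 h. Every early DOI mouse was above vehicle, at log2 fold changes of 1.17 (SE 0.35, adjusted p = 0.024) and 1.20 (SE 0.35, adjusted p = 0.0176). The call of Ezh2 was lost at 24 h without vehicle mice 1 and 2 or 24 h mice 1 and 4 (adjusted p = 0.0525 to 0.0799) and at 48 h without vehicle mouse 1 or 48 h mice 2 and 3 (adjusted p = 0.0502 to 0.0609). Ezh1 (ENSMUSG00000006920, chr11:101191115-101226463, minus strand) was at 107, 92.1, 102 and 91.5 CPM in vehicle mice, 45.1, 61.9, 70.7 and 46.3 CPM at 24 h and 40.7, 58.1, 47.1 and 53.8 CPM at 48 h. Here every early DOI mouse was below vehicle, with log2 fold changes of -0.81 (SE 0.26, adjusted p = 0.0335) and -0.97 (SE 0.26, adjusted p = 0.0121). At 24 h Ezh1 lost its call without vehicle mice 1, 2, 3 and 4 or 24 h mice 1, 2 and 4 (adjusted p = 0.0509 to 0.0976) and with library 2 alone (0.0677).

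Suz12, a structural PRC2 subunit (ENSMUSG00000017548, chr11:79993106-80034123, plus strand), was at 11.1, 16.9, 22.6 and 21.2 CPM in vehicle mice, 49.8, 22.8, 35.1 and 29.8 CPM at 24 h and 23.2, 27.6, 33.6 and 31.8 CPM at 48 h. Although the groups did not overlap at either time, by edgeR its 24 h change passed, at 0.93 (SE 0.28, adjusted p = 0.0229) on the log2 scale, and that at 48 h, 0.69 (SE 0.28, adjusted p = 0.0675), did not. At 48 h Suz12 passed in 6 other settings, DESeq2 and limma voom among them (adjusted p = 0.0248 to 0.0476). The 24 h call was lost without vehicle mice 1 and 2 or 24 h mouse 1 (adjusted p = 0.0619 to 0.0863). Eed, which binds the methylated tail, was at 15.5 to 25.4 CPM in vehicle mice, 13.8 to 32.6 at 24 h and 17.1 to 22.4 at 48 h and passed at neither time. Kdm6b (JMJD3), the inducible H3K27 demethylase (ENSMUSG00000018476, chr11:69398508-69413675, minus strand), was at 3.31, 6.71, 7.66 and 4.57 CPM in vehicle mice, 20.6, 10.4, 14.2 and 15.0 CPM at 24 h and 8.40, 20.6, 10.7 and 14.2 CPM at 48 h. Its level was low but the groups did not overlap, and the log2 fold changes were 1.44 (SE 0.34, adjusted p = 0.00722) and 1.27 (SE 0.34, adjusted p = 0.0105). An antisense gene shares 4.11% of its exon bases.

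Ratios of 2 related genes within a mouse do not depend on the scaling between mice, so 6 pairs were compared, each gene per kilobase of exon. The ratio of Ezh2 to Ezh1 was 0.0670, 0.127, 0.128 and 0.128 in vehicle mice 1 to 4, 0.772, 0.273, 0.297 and 0.541 at 24 h, 0.484, 0.578, 0.644 and 0.308 at 48 h and 0.0850, 0.400, 0.149 and 0.855 at 7 days. Its geometric mean was 3.95-fold that of vehicle at 24 h and 4.47-fold at 48 h, without overlap, and it stayed below 1 in every mouse of the 4 groups. Ezh2 was above and Ezh1 below vehicle in every early DOI mouse. The lack of overlap of their ratio at 24 h and 48 h, and its p below, followed from that and add no support. Kat6b stood to Kat6a at 0.682, 0.493, 0.805 and 1.07 in vehicle mice, 3.15, 1.64, 1.92 and 2.85 at 24 h and 1.47, 3.23, 2.15 and 1.96 at 48 h, geometric means 3.14-fold and 2.88-fold that of vehicle, without overlap. Ep300 stood to Crebbp at 0.220, 0.231, 0.244 and 0.233 in vehicle mice, 0.250, 0.330, 0.287 and 0.347 at 24 h, 0.309, 0.297, 0.261 and 0.309 at 48 h and 0.249, 0.284, 0.323 and 0.364 at 7 days. This difference of 1.30-fold, 1.27-fold and 1.30-fold was free of overlap with vehicle at all 3 times. Each of these 7 differences had p = 0.0286 in a two-sided exact permutation test, the smallest that 4 mice against 4 allow, and 0.0735 after adjustment over the 18 comparisons, so none passed 0.05. The ratios of Kat2b to Kat2a, Brd2 to Brd3 and Hdac2 to Hdac1 overlapped vehicle at every time.

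**Figure D4:**
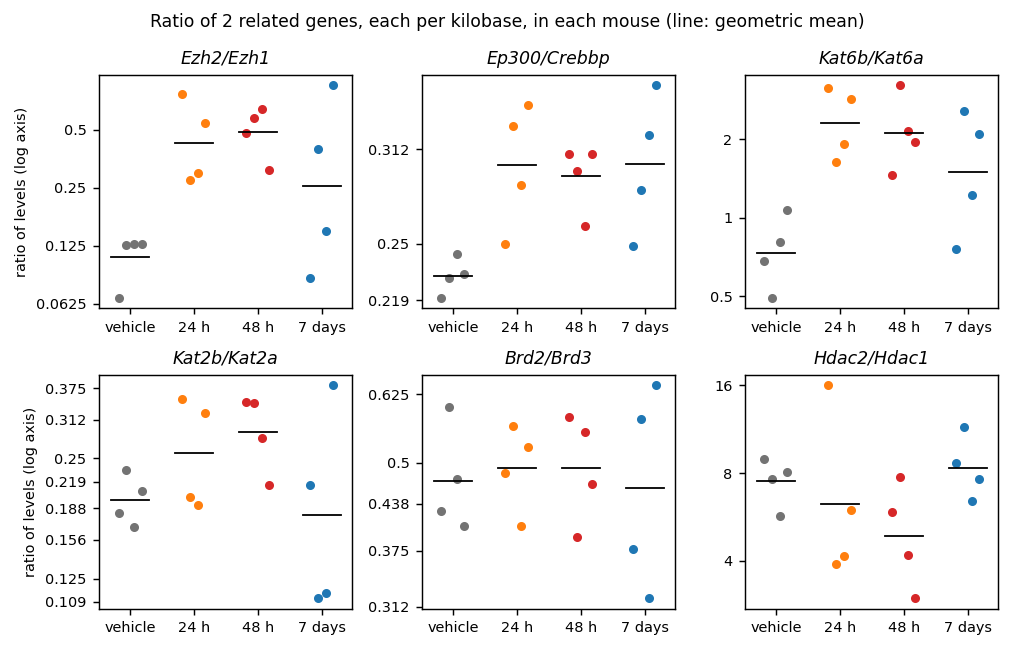
Ratio of 2 related genes, each per kilobase of exon, in each mouse (points) with the geometric mean of the group (line), on log axes that differ between panels. Ezh2/Ezh1 and Kat6b/Kat6a lie above vehicle at 24 h and 48 h, and Ep300/Crebbp at all 3 times.

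At 7 days 0 of 36 members passed, as did 0 of 17941 genes (0%). At an unadjusted p below 0.05 there were 9 members (25.0%) against 16.8% of all genes. Leaving out 1 mouse moved these 9 to between 3, without 7 day mouse 4, and 12, without 7 day mouse 1. With DESeq2 Kat6b and Hdac5 passed, with adjusted p of 0.0379 and 0.0438. The groups did not overlap in 4 members (11.1%), where 5.85% of all genes had no overlap: Brd3, Hdac4 and Hdac11 were higher and Hdac9 lower. The 4 mice were unlike each other. Kat6b was at 26.6, 163, 21.9 and 199 CPM in mice 1 to 4, with mice 1 and 3 within or just under the vehicle range and mice 2 and 4 far above it. Mouse 2 was just below the 24 h range of 173 to 221 CPM and mouse 4 within it. The log2 fold change of Kat6b was 1.77 (SE 0.49, adjusted p = 0.105). Hdac10 followed with 92.6, 26.3, 127 and 28.8 CPM, Ep300 with 54.0, 89.98, 60.7 and 112 CPM, Kat7 with 115, 43.7, 99.2 and 43.0 CPM and Ezh1 with 107, 63.1, 94.9 and 34.3 CPM. In each of these genes mice 2 and 4 lay on the side of the early groups and mice 1 and 3 closer to vehicle. Not every member called at the early times split so. In mice 1 to 4 Hdac4 was at 119, 173, 118 and 117 CPM, Hdac7 at 7.79, 14.5, 14.0 and 14.0 CPM and Kdm6b at 7.20, 6.39, 7.59 and 9.79 CPM.

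Over the 11 members higher at both early times, the level relative to the vehicle mean had a median log2 difference of 0.03, 0.87, 0.18 and 1.03 in 7 day mice 1 to 4. Over the 5 lower members it was 0.12, -1.01, -0.04 and -1.30. At 24 h and 48 h the 8 mice ranged from 0.91 to 1.20 for the higher members and from -1.19 to -0.53 for the lower ones. The members were chosen by their calls in these same early and vehicle mice, so the early values are apart from vehicle by that choice. The 18S pseudogene was at 87.3 CPM in 7 day mouse 1 and 63.4 in mouse 3, against 72.3 to 110.0 in vehicle mice, and at 6171 and 4622 CPM in mice 2 and 4, and excitatory neuron markers summed to 449, 1349, 411 and 1208 CPM in mice 1 to 4. Markers of striatal neurons, a neighbouring region's cells, summed to 598, 1721, 364 and 1164 CPM there and to 244 to 416 CPM in vehicle mice. Except for the fit with the 18S share as a covariate, the part of these in the members' levels was not tested. Left out in turn, 7 day mouse 1 gave 3 calls (Kat6b, Hdac5 and Ep300, with adjusted p of 0.00938, 0.0162 and 0.0400) and mouse 3 gave 2 (Kat6b and Brd2, with 0.00982 and 0.0493), while without mouse 2 or mouse 4 there were 0.

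Compared directly, 48 h and 24 h differed in 0 members by edgeR (0 of all genes, 0%), with 0 at an unadjusted p below 0.05 and 0 by DESeq2. Between 7 days and 24 h 0 members passed, with 1 of all genes (0.00557%); 6 members (16.7%) had an unadjusted p below 0.05, near the 14.2% of all genes, and Hdac7 had the smallest adjusted p of 0.208. Between 7 days and 48 h 0 members and 0 of all genes (0%) passed, with 12 members (33.3%) at an unadjusted p below 0.05, against 16.5% of all genes. DESeq2 also gave 0 for both. The 12 members between 7 days and 48 h fell to 3 without 7 day mouse 1 and to 4 with only the groups compared. They rose to 15 without 7 day mouse 2 or 4. In that last comparison 1 member passed without 7 day mouse 2 (Hdac4, adjusted p = 0.0491) and 2 without mouse 4 (Kat6a and Ezh1, 0.0448 and 0.0490). When the 4 groups were tested together 11 members passed (30.6%), where 18.8% of all genes did: Hdac7, Kat6b, Brd3, Hdac5, Hdac4, Kdm6b, Ep300, Ezh1, Kat7, Kat6a and Hdac10. That count ranged from 3 without vehicle mouse 4 to 17 without 7 day mouse 4, with 5 without vehicle mouse 1, 6 without vehicle mouse 2 or 3, and 7 without 24 h mouse 4 or 48 h mouse 1, 2 or 3.

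Per kilobase of exon the members spanned a wide range in vehicle neurons. Sirt7 was highest at 132 ± 16.5 RPKM (CPM per kilobase of exon; SD, n = 4), followed by Hdac3 at 65.4 ± 5.71, Brd9 at 46.2 ± 2.26, Hdac10 at 26.3 ± 0.765, Sirt3 at 25.6 ± 3.29 and Brd8 at 25.1 ± 2.93. At the other end were Hdac1 at 1.56 ± 0.304 RPKM, Ezh2 at 1.46 ± 0.345, Hdac7 at 1.16 ± 0.341, Sirt6 at 0.876 ± 0.189 and Kdm6b at 0.800 ± 0.285. Of the 35 steps from 1 gene to the next lower, the ranges of the 4 vehicle mice were apart in 4: Sirt7 to Hdac3, Hdac3 to Brd9, Brd9 to Hdac10 and Brd8 to Kat7. In the other 31 the neighbours overlapped. Crebbp, at 16.2 ± 1.17 RPKM, was the higher of the H3K27 acetyltransferases and Ep300 reached 3.76 ± 0.350. Kat6b moved from 1.78 ± 0.207 RPKM in vehicle to 11.6 ± 1.26 at 24 h. Kat7 went from 19.3 ± 2.33 to 10.6 ± 2.17 RPKM, so that the ranges of Kat6b and Kat7, far apart in vehicle mice, overlapped at 24 h. Sirt7 shares 3.46% of its exon bases with neighbouring genes.

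**Figure D5:**
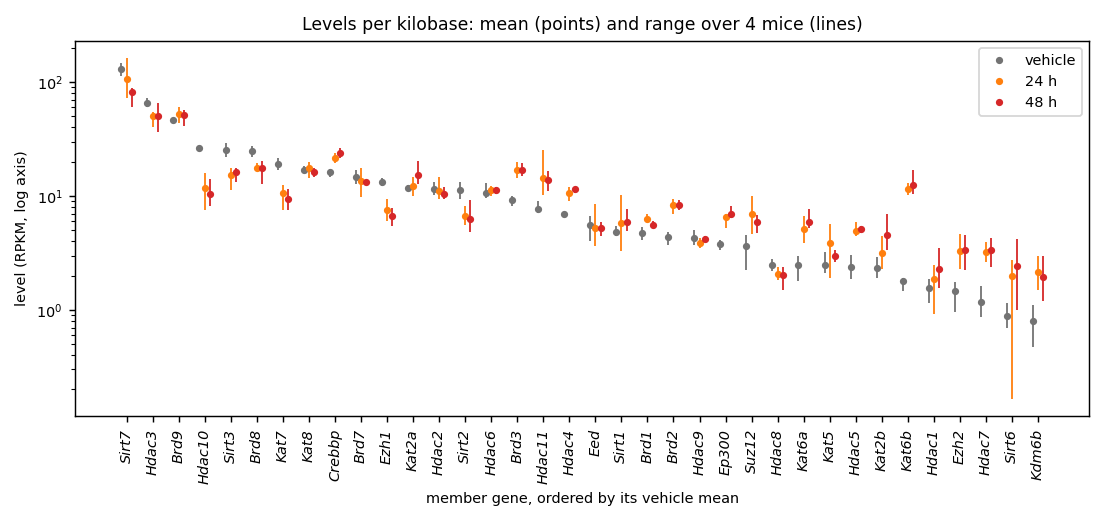
Level per kilobase (RPKM, log axis) of the 36 members in vehicle, 24 h and 48 h mice, ordered by the vehicle mean; points are means and lines the range of the 4 mice. Sirt7 is the highest and Kdm6b the lowest in vehicle mice; Hdac10, Sirt3 and Kat7 lie lower and Crebbp, Kat6b, Hdac7 and Kdm6b higher after DOI, while Brd9 and Hdac1 overlap vehicle.

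The members that rose had a longer median gene span than those that fell. The median span from first to last exon was 57.0 kb for the 12 members higher at 24 h, 21.9 kb for the 5 lower and 26.3 kb for the 19 not called. At 48 h it was 65.2 kb for the 13 higher, 21.9 kb for the 7 lower and 26.5 kb for the 16 not called. Over all genes the order was the reverse at both times, with 15.2 kb for genes higher and 23.3 kb for genes lower at 24 h, and 17.6 and 19.2 kb at 48 h. These medians were not tested.

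Beyond the members, 133 further genes of the same machinery were listed by role, 131 of them tested. Of these 43 passed at 24 h (32.8%, against 24.2% of all genes), 28 higher and 15 lower, 50 at 48 h (38.2%, against 30.1%), 30 higher and 20 lower, and 0 at 7 days, where 20 (15.3%, against 16.8% of all genes) had an unadjusted p below 0.05 and DESeq2 called 5. Among 41 other acetyltransferases and complex subunits 7 rose and 4 fell at 24 h (26.8%) and 9 rose and 5 fell at 48 h (34.1%), near those shares of all genes, with median log2 fold changes of -0.04 and 0.05. Ing4, a subunit of the HBO1 complex to which Kat7 belongs, fell from the range 36.7 to 54.2 CPM in vehicle mice to the range 1.89 to 8.48 at 24 h. Its log2 fold change was -3.18 (SE 0.64, adjusted p = 0.00372). Epc1 and Ep400, subunits of the TIP60 complex, rose, with log2 fold changes at 24 h of 1.79 (SE 0.41, adjusted p = 0.00632) for Epc1 and 0.76 (SE 0.19, adjusted p = 0.00961) for Ep400.

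Among 36 deacetylase corepressor genes and remaining sirtuins 9 rose and 6 fell at 24 h and 8 rose and 7 fell at 48 h (41.7% at each, against 24.2% and 30.1% of all genes). Chd3, a NuRD remodeller, rose at 24 h, with a log2 fold change of 0.95 (SE 0.17, adjusted p = 0.0026). Of 27 other acetyl-lysine readers 5 rose and 1 fell at 24 h (22.2%) and 6 rose and 1 fell at 48 h (25.9%), below the 24.2% and 30.1% of all genes. Bptf, a remodeller subunit, rose at 24 h, with a log2 fold change of 1.09 (SE 0.26, adjusted p = 0.00795).

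Of 21 other H3K27 methylation genes tested 6 rose and 1 fell at 24 h (33.3%) and 6 rose and 4 fell at 48 h (47.6%), against the same 24.2% and 30.1%. The polycomb group genes Pcgf2 and Phc1 rose, with log2 fold changes at 24 h of 2.48 (SE 0.39, adjusted p = 0.00177) for Pcgf2 and 1.04 (SE 0.21, adjusted p = 0.00372) for Phc1. Kdm6a (UTX), the other H3K27 demethylase, had a log2 fold change of -0.35 (SE 0.21, adjusted p = 0.224) at 24 h, which did not pass, and fell by 0.58 (SE 0.21, adjusted p = 0.0429) on the log2 scale at 48 h, opposite in sign to Kdm6b. Of 8 genes that supply acetyl-CoA 1 rose and 4 fell at each time (62.5%): the mitochondrial citrate carrier Slc25a1 rose from the range 22.7 to 24.1 CPM in vehicle mice to the range 99.3 to 165 at 24 h, by 2.56 (SE 0.37, adjusted p = 0.00153), and Dlat, a subunit of pyruvate dehydrogenase, fell from the range 90.9 to 116 CPM to the range 50.3 to 56.3 CPM, a log2 fold change of -0.97 (SE 0.20, adjusted p = 0.00401).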

How the data were processed

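Nuclear RNA of 16 mice was sequenced in 2 libraries each. Per the file headers, the authors counted reads per gene with featureCounts v2.0.0, without strand; the deposited values are raw counts. The submitters' processing notes name Trim Galore 0.6.5, DESeq2 1.30.0 and mm10; the aligner is not given in the sources used here. The 2 libraries of a mouse were summed, and p-values measure the spread between mice.

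Genes were kept with edgeR's filterByExpr by group, scaled with TMM and tested over all 4 groups in 1 fit with the quasi-likelihood test of edgeR 4.0.16 (R 4.3.3), with Benjamini-Hochberg adjustment over 17941 genes and a threshold of 0.05. Levels are CPM with TMM factors, and RPKM where genes are compared. Depth was 5834248 to 12354785 counts per mouse. The pipeline was tested on simulated data. Within-mouse ratios were compared with exact permutation tests in scipy 1.17.1. Motifs were searched in RefSeq promoters on both strands.

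Values in every mouse are given for members called at 24 h or 48 h, and for Crebbp, Ep300, Hdac2, Ezh2 and Kdm6b. Of each wider list at most the 2 genes with the smallest p at each of 24 h and 48 h, with Kdm6a, could be named; some genes of these lists are not reported here. The members and lists were chosen with earlier results of these data known. Alternatives were DESeq2 1.42.0, limma 3.58.1 (voom with quality weights), other scalings and filters, single libraries, thinned counts, covariates, the mouse number as a block and each mouse left out. In the headers 24 h mouse 1, 48 h mouse 2 and 7 day mouse 2 carry the mouse number 6; the labels' numbers were used.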

Additional observations from a re-analysis of the deposited data

Results flagged for a closer look

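In 15 of 144 groups of 4 mice, 1 mouse stood apart from the other 3 by more than Dixon's 95% critical value for the gap over the range; chance gives about 1 in 20, or 7.2 groups. Of the 15, 3 came from 24 h mouse 1 and 3 from 48 h mouse 1. Ep300 in 24 h mouse 1 was the lowest of its group at 74.9 CPM, and the next value was 97.4 CPM. Ep300 in 48 h mouse 1 was the highest of its group at 117 CPM, and the next value was 94.8 CPM. Kat6a in 48 h mouse 1 was the highest of its group at 72.0 CPM, and the next value was 50.7 CPM. Kat6b in vehicle mouse 2 was the lowest of its group at 24.8 CPM, and the next value was 31.2 CPM. Hdac3 in 24 h mouse 4 was the lowest of its group at 163 CPM, and the next value was 213 CPM. Hdac4 in 7 day mouse 2 was the highest of its group at 173 CPM, and the next value was 119 CPM. Hdac7 in 7 day mouse 1 was the lowest of its group at 7.79 CPM, and the next value was 14.0 CPM. Hdac9 in 7 day mouse 3 was the lowest of its group at 45.0 CPM, and the next value was 51.9 CPM.

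Hdac6 in vehicle mouse 1 was the highest of its group at 75.1 CPM, and the next value was 58.3 CPM. Hdac10 in vehicle mouse 2 was the highest of its group at 92.8 CPM, and the next value was 88.1 CPM. Hdac11 in 24 h mouse 1 was the highest of its group at 96.7 CPM, and the next value was 44.5 CPM. Sirt6 in 24 h mouse 1 was the lowest of its group at 0.457 CPM, and the next value was 6.47 CPM. Sirt7 in 48 h mouse 3 was the lowest of its group at 313 CPM, and the next value was 448 CPM. Brd1 in 48 h mouse 1 was the highest of its group at 51.1 CPM, and the next value was 45.2 CPM. Eed in 7 day mouse 4 was the highest of its group at 31.5 CPM, and the next value was 22.7 CPM.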

How the results depend on the processing

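Leaving out 1 mouse moved the count of members called to between 7 and 16 at 24 h, 11 and 18 at 48 h, 0 and 3 at 7 days, 0 and 2 between 7 days and 48 h, and 3 and 17 in the 4-group test. It gave 0 throughout between 48 h and 24 h and between 7 days and 24 h. Tool, scaling, filter, single libraries and thinning left the 24 h count between 13 and 24 and the 48 h count between 18 and 22. At 7 days DESeq2 called 2 members (Kat6b and Hdac5) and the fit with no filter 1 (Kat6b), and of the wider lists each called 5. With no filter 2 members (Kat6b and Hdac10) passed between 7 days and 48 h. In the 4-group test DESeq2 called 19, voom 24 and the block 7. The causes were not tested.

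With the mouse number as a replicate block 15 members passed at 24 h, 18 at 48 h and 0 at 7 days, without the 24 h calls of Kat6a and Kat7 and the 48 h calls of Brd8 and Sirt7 (adjusted p = 0.0523 to 0.0575). By the labels' numbers, mice with the same number had a mean correlation of -0.0362 over 24 pairs (from -0.282 to 0.244). Mice with different numbers had 0.0117 over 72 pairs (from -0.246 to 0.311). The headers give the number 6 to 24 h mouse 1, 48 h mouse 2 and 7 day mouse 2. Pairing by the header numbers was not tested.

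With the 18S pseudogene share as a covariate 0 members passed at 24 h, at 48 h and in the 4-group test, and several log2 fold changes changed sign. At 24 h these were Brd2 -0.46, Brd8 0.094, Crebbp -0.20, Ep300 -0.071, Ezh1 0.17, Hdac10 0.72, Kat6a -0.65, Kat7 0.27 and Sirt7 0.50. At 48 h they were Brd2 -0.52, Brd8 0.10, Crebbp -0.096, Ep300 -0.011, Ezh1 0.044, Hdac10 0.60, Kat6a -0.53, Kat7 0.15, Sirt3 0.049 and Sirt7 0.19. At 7 days they were Brd2 -0.14, Brd8 0.020, Crebbp -0.14, Hdac10 0.092, Hdac2 -0.048, Kat6a -0.57 and Sirt7 0.16. Hdac2, not called at any time, also changed sign at 24 h with total counts only (0.048), library 1 alone (0.028) and thinned counts (0.0026), and at 7 days with voom (-0.013). Without 1 mouse Hdac2 ranged from -0.22 to 0.020 at 24 h and from -0.17 to 0.13 at 7 days, and Kat6a at 7 days from -0.086 to 0.64. For the named members, leaving out a mouse kept direction and side of the threshold in 432 values, lost a call in 85, gained one in 5 and reversed 6. The other settings did so in 825, 52, 17 and 30. Scaling by total counts only put the median change over all genes tested at 0.137 (log2) at 24 h and at 0.117 at 48 h. Members near 3 counts, such as Sirt6 in 24 h mouse 1, are limited by depth.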
